A study of Rattus norvegicus with 2 samples.

Results

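The EGF family of ligands and the ErbB receptors they bind were followed through the cells of the rat carotid artery, normal and balloon-injured. Members were 7 genes taken by symbol from the 32623 genes of the deposited count matrix, and all 7 were listed there: the ligand genes Hbegf (ENSRNOG00000018646), Areg (ENSRNOG00000002754), Ereg (ENSRNOG00000002771) and Nrg1 (ENSRNOG00000010392), and the receptor genes Egfr (ENSRNOG00000004332), Erbb2 (ENSRNOG00000006450) and Erbb3 (ENSRNOG00000004964). The rule used no expression value.

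EGF-family ligands are made as membrane-anchored precursors, and metalloproteases such as ADAM17 cut them free to act on the same cell or on neighbours. HB-EGF, amphiregulin and epiregulin (Hbegf, Areg, Ereg) bind EGFR, and neuregulin 1 (Nrg1) binds ErbB3 and ErbB4. ErbB2 binds no known ligand and serves as the preferred partner of the others, and ErbB3 has little kinase activity of its own, so neuregulin signals mainly through pairs with ErbB2. In the artery HB-EGF is known as a mitogen of vascular smooth muscle cells (VSMCs), and in nerve the neuregulin and ErbB2/ErbB3 pair drives Schwann cell growth and myelination.

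Single-cell RNA was captured on the 10x Genomics platform from carotid arteries of 2 male SD rats, 12 weeks old by the labels. The control group was 1 library of both left arteries with the treatment given as none, and the case group was 1 library of both right arteries of the same rats, 28 days after balloon injury. Rats were pooled within each library and the right side alone was operated on, external carotid ligation included, so injury, side and library cannot be told apart. With 1 library per group there was no replicate, so no p-value is given. Every interval below is a 95% counting interval, which leaves out differences between animals and libraries. Intervals of levels and ratios also treat UMIs of 1 cell as independent, and are too narrow where UMIs gather in few cells.

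The control library held 24968329 UMIs (unique molecular identifiers, 1 per captured transcript) in 3321 barcodes and the case library 28232614 UMIs in 5656 barcodes. After filtering, 2742 control cells with a median of 8880 UMIs and 4930 case cells with a median of 5156 UMIs remained. A marker gate placed 1472 control and 2576 case cells with VSMCs, 767 and 1365 with fibroblasts, 52 and 205 with endothelial cells (ECs), 36 and 95 with macrophages, and 22 and 39 with Schwann cells. Another 110 control and 77 case cells passed for 2 classes and 283 and 573 passed for none. The VSMC gate held 351 control cells under 1000 UMIs against 11 in the case group, and 21 barcode sequences occurred in both libraries. No cell of either library carried 3 or more of 6 epithelial markers, the cell type best known for amphiregulin and epiregulin.

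Levels are UMIs of a gene per 1000000 UMIs of the class (CPM). UMIs are counted at 1 transcript end and were not divided by gene length, so CPM values of different genes rank how often each was captured.

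**Figure D1:**
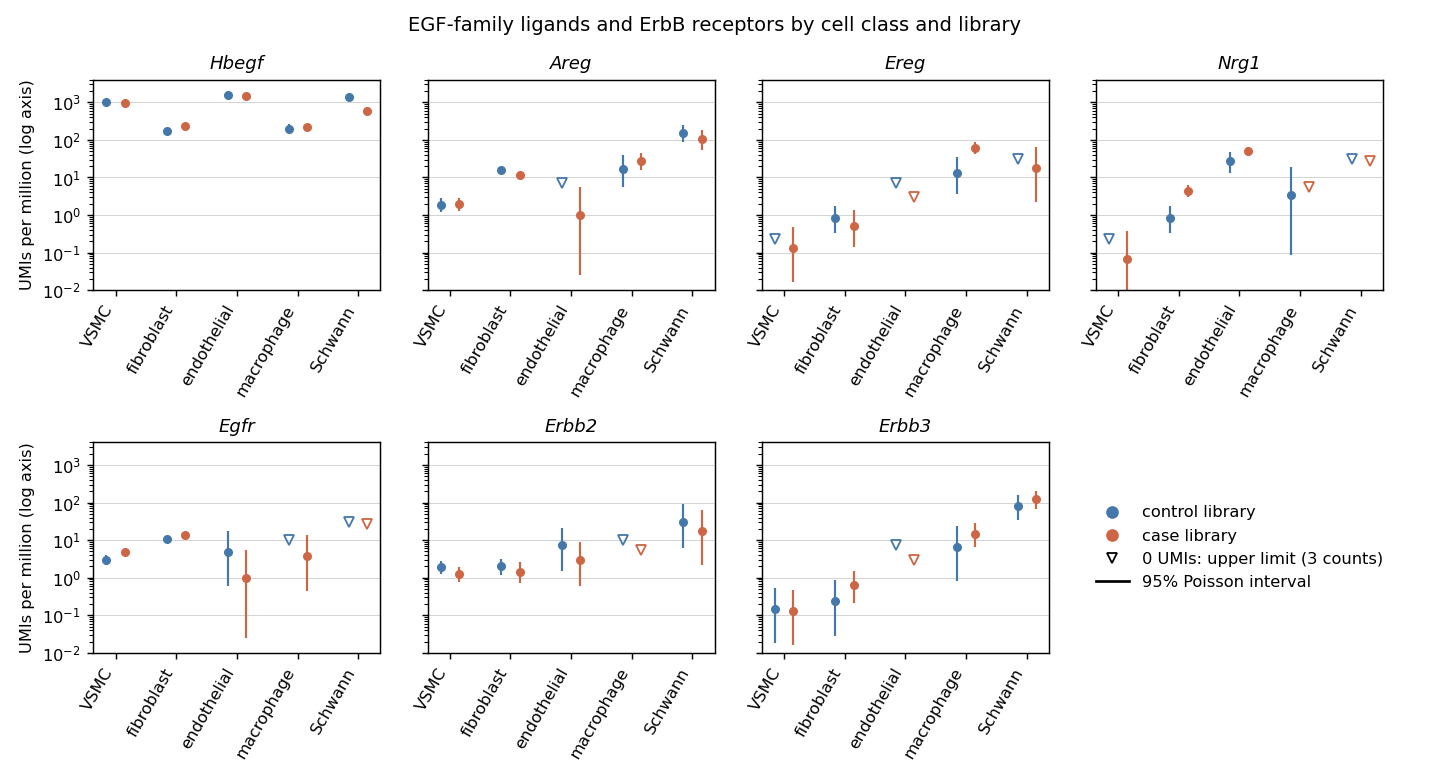
CPM (log axis) of each member in the 5 gated classes, control library in blue and case library in orange; bars are exact 95% Poisson intervals and open triangles mark the upper limit where no UMI was seen. Hbegf sat above 100 CPM in every class, and no receptor reached that level outside Schwann-gated cells.

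The ligands differed in the cells that carried them. Hbegf was captured in every class and was highest in ECs, VSMCs and Schwann cells. Areg was found in few cells, with more UMIs in fibroblasts than in any other class. Ereg was highest in macrophages, though not beyond counting error over Schwann cells, and Nrg1 lay in ECs and fibroblasts. Among receptors Egfr had most of its UMIs in fibroblasts and VSMCs, Erbb3 lay in Schwann cells and macrophages, and Erbb2 was near the detection limit throughout.

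Hbegf was the most captured member, with 16619 UMIs in kept control cells and 20006 in kept case cells. VSMC-gated cells held 79.7% of the control and 72.6% of the case UMIs, fibroblast-gated cells 8.91% and 8.94%, and endothelial-gated cells 4.02% and 7.28%. VSMCs were therefore the main source by count, while the level per UMI was highest in ECs.

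**Figure D2:**
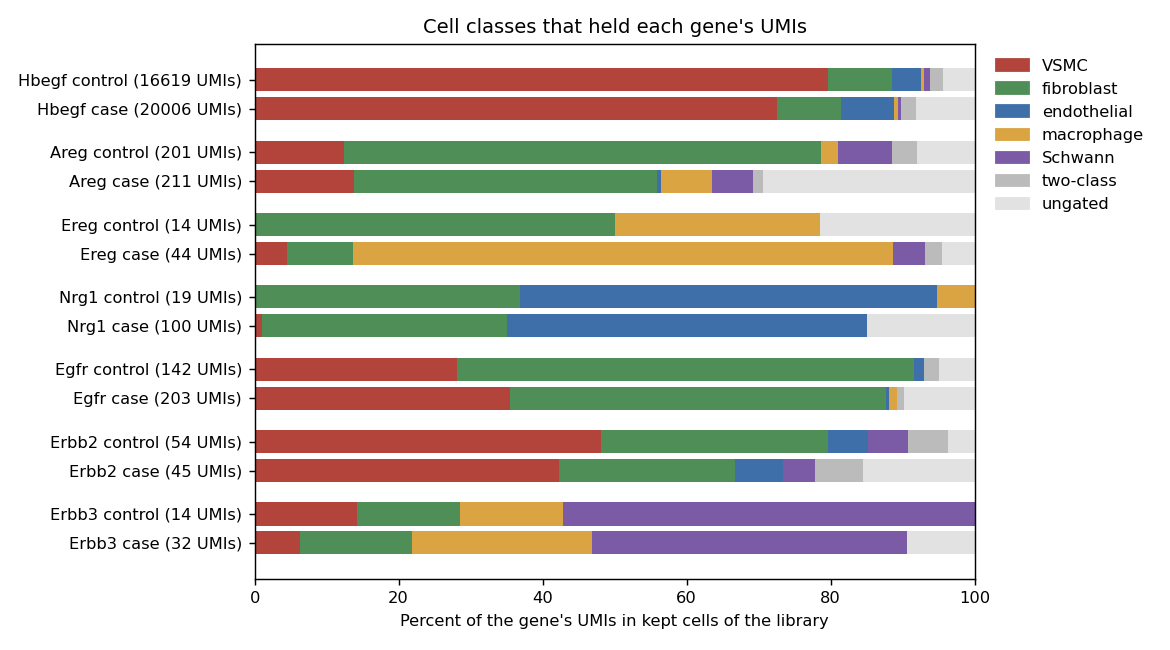
Percent of each member's UMIs in kept cells (x axis) that lay in each gated class, in cells gated to 2 classes and in ungated cells, for the control and case library; the UMI total stands beside each bar. VSMC-gated cells held 79.7% of control Hbegf UMIs and endothelial-gated cells 50.0% of case Nrg1 UMIs.

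In control cells Hbegf was at 1617 CPM in ECs, 1410 CPM in Schwann cells, 991 CPM in VSMCs, 200.2 CPM in macrophages and 176 CPM in fibroblasts. ECs and Schwann cells differed by less than their counting interval (log2 0.20, -0.07 to 0.47), as did macrophages and fibroblasts (0.19, -0.21 to 0.56). VSMCs exceeded fibroblasts by 5.64-fold (5.34 to 5.95).

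In case cells the order was ECs at 1452 CPM, VSMCs at 972 CPM, Schwann cells at 605 CPM, fibroblasts at 232 CPM and macrophages at 220.4 CPM. ECs exceeded VSMCs by 1.49-fold and VSMCs exceeded Schwann cells by 1.61-fold, both beyond the counting interval, whereas fibroblasts and macrophages did not differ beyond it (log2 0.07, -0.19 to 0.35). VSMCs exceeded fibroblasts by 4.19-fold (3.99 to 4.41). With classes taken from Leiden clusters instead of the gate, Schwann and VSMC classes of the case group stood level (log2 0.01).

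Hbegf was spread over most VSMCs and ECs. With each cell thinned to 1000 UMIs, it was detected in 55.9% of 1121 control and 56.6% of 2565 case VSMCs, in 59.6% of 52 and 60.0% of 205 ECs, and in 15.0% of 735 and 19.2% of 1361 fibroblasts. Without thinning the VSMC shares were 77.3% and 91.3%, with 351 and 11 cells under 1000 UMIs among them. Thinning also left out cells under 1000 UMIs. Without thinning, 1049 of the 1121 control and 2343 of the 2565 case VSMCs of at least 1000 UMIs held Hbegf. In thinned cells both libraries lay within each other's interval in VSMCs and ECs.

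The median VSMC of at least 1000 UMIs carried 8.58 Hbegf UMIs per 10000 in the control and 8.21 in the case group. The 10% of cells with the least lay at or under 1.36 in both groups. The 10% of VSMCs with the most Hbegf held 29.5% and 29.2% of the class's Hbegf UMIs, against 50.7% and 50.4% for the highest 10% of fibroblasts. Fibroblasts had far fewer Hbegf UMIs per cell, which by itself raises such a share, and evenness at an equal level was not compared.

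**Figure D3:**
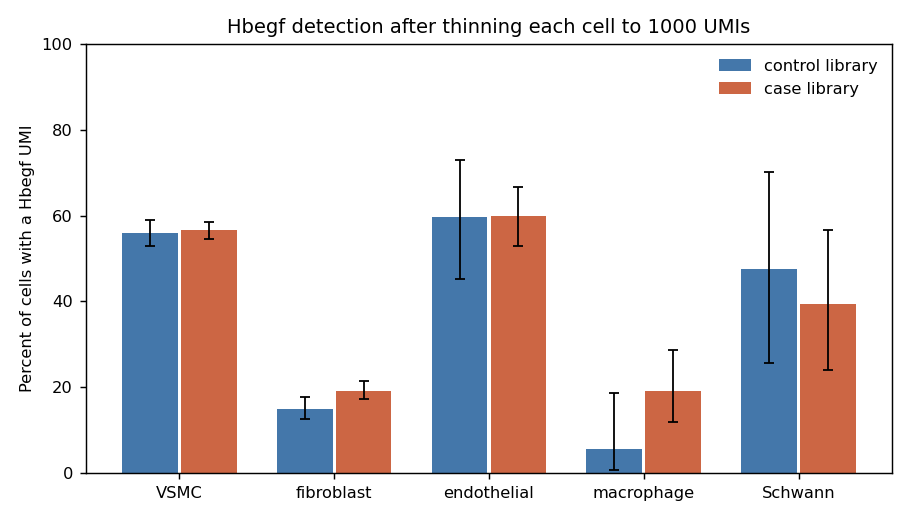
Percent of cells with at least 1 Hbegf UMI (y axis) after each cell was thinned to 1000 UMIs, by class and library; bars are exact Clopper-Pearson 95% intervals. VSMCs stood at 55.9% and 56.6%, ECs at 59.6% and 60.0%, and fibroblasts at 15.0% and 19.2%.

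The free RNA of the libraries was not measured, so its part in the Hbegf of other classes was not tested. For each 100 UMIs of the 6 VSMC markers, VSMCs held 3.82 Hbegf UMIs in the control and 4.65 in the case group. The same ratio was 16.9 and 22.9 in fibroblasts, 21.4 and 19.8 in macrophages, 113 and 117 in ECs, and 95.8 and 54.0 in Schwann cells. The gate chose VSMCs for many of these marker UMIs and other classes for few, which sets part of this ratio.

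Fibroblasts were uneven in Hbegf. Those with at least 5 UMIs per 10000 of Gfpt2, an enzyme gene of hexosamine synthesis, had 116 CPM in 370 control and 147 CPM in 708 case cells. The remaining fibroblasts had 267 CPM in 365 control and 362 CPM in 653 case cells, so the Gfpt2-high cells were lower by 1.20 (1.05 to 1.35) and 1.30 (1.16 to 1.44) on the log2 scale. Gfpt2-high cells were also deeper, at a median of 13840 against 8672 UMIs in control and 6234 against 4355 in case cells, and the part of depth was not tested. Splitting fibroblasts by Pi16, a marker of adventitial progenitors, gave 182 and 160 CPM in control cells and 226 and 236 CPM in case cells.

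Among ECs, cells high in Plvap, a gene of fenestrated endothelium, had less Hbegf. In the case group 44 Plvap-high ECs were at 957 CPM and 161 others at 1568 CPM, a log2 difference of -0.71 (-0.94 to -0.49). The control group held only 5 Plvap-high ECs, at 942 CPM against 1676 CPM.

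Cells that passed the gate for 2 classes had Hbegf at 578 CPM in the control and 686 CPM in the case group. Both values lay between those of VSMCs and fibroblasts. The 2 sets of cells were unlike in depth, with a median of 1433 UMIs in 110 control cells and 8517 UMIs in 77 case cells. Of these, 41 control and 0 case cells were under 1000 UMIs, and the part of depth was not tested.

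Areg was captured 201 times in kept control and 211 times in kept case cells. Fibroblasts held 133 control and 89 case UMIs, VSMCs 25 and 29, Schwann cells 15 and 12, macrophages 5 and 15, and ECs 0 and 1. Levels ran from 153 CPM in control and 107 CPM in case Schwann cells through 16.7 and 27.8 CPM in macrophages and 15.8 and 11.5 CPM in fibroblasts to 1.87 and 1.94 CPM in VSMCs. The macrophage level depended on the gate: the macrophage Leiden cluster had 18 and 40 Areg UMIs (36.5 and 53.1 CPM). Of these, 13 and 25 lay in cells that were ungated or gated to 2 classes. Fibroblasts exceeded VSMCs by log2 3.08 (2.45 to 3.76) in control and 2.57 (1.95 to 3.23) in case cells.

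These UMIs were concentrated in few cells. In control fibroblasts 45 of 767 cells held Areg, up to 15 UMIs in 1 cell, and in case fibroblasts 40 of 1365 cells did, up to 19. The Schwann level rested on 1 cell with 14 of the 15 control UMIs and 1 cell with 10 of the 12 case UMIs, and all 5 control macrophage UMIs lay in 1 cell. UMIs of 1 cell are not independent, so the Poisson intervals of Areg and Ereg are too narrow. The same holds for Hbegf, where 1 cell held 24.8% of control Schwann UMIs and the highest 10% of case ECs held 41.1%.

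Within fibroblasts Areg followed Gfpt2 in the opposite sense to Hbegf. Of the Areg UMIs in cells of at least 1000 UMIs, Gfpt2-high fibroblasts held 115 against 18 in control and 79 against 8 in case cells. By CPM this was 22.6 against 5.44 in the control group, a log2 difference of 2.05 (1.33 to 2.86), and 17.0 against 2.62 in the case group, 2.69 (1.65 to 3.95). A further 62 case UMIs lay in 16 of 573 ungated cells, 22 of them in 1 cell.

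Ereg was mainly a macrophage transcript in the case group, where macrophages held 33 of 44 UMIs. These lay in 6 of 95 cells, with 20 UMIs in 1 of them, and gave 61.1 CPM. In control macrophages 4 UMIs in 1 of 36 cells gave 13.3 CPM. Fibroblasts had 7 and 4 UMIs, VSMCs 0 and 2, Schwann cells 0 and 2, and ECs none in either library, which allows up to 7.26 CPM in control and 2.99 CPM in case ECs. The 0 in control Schwann cells allows up to 30.6 CPM, above the control macrophage level. Case Schwann cells stood at 17.8 CPM, and macrophages exceeded them by log2 1.78 (-0.19 to 4.88), an interval that holds 0.

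Nrg1 was an EC and fibroblast transcript. ECs had 11 UMIs in 8 of 52 control cells and 50 UMIs in 27 of 205 case cells, or 26.6 and 49.9 CPM. Fibroblasts had 7 UMIs in 7 of 767 control cells and 34 UMIs in 26 of 1365 case cells, or 0.831 and 4.41 CPM. VSMCs had 0 UMIs among 13360293 in the control and 1 among 14929807 in the case group.

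In case cells ECs exceeded fibroblasts by log2 3.50 (2.84 to 4.17), and fibroblasts exceeded VSMCs by 6.04 (3.46 to 11.39). Schwann-gated cells held no Nrg1 UMI, which allows up to 30.6 CPM in control and 26.7 CPM in case cells. The 35 case cells of the Schwann Leiden cluster that were ungated or gated to 2 classes held 3. Case Nrg1 UMIs were unevenly placed within both classes. Plvap-high ECs had 1 UMI and the other ECs 49 (5.26 against 60.3 CPM, log2 -3.52, -8.85 to -0.97). By Emcn, another endothelial gene, the split was 67.7 CPM in high and 48.1 CPM in other case ECs (log2 0.49, -1.03 to 1.73), and the Leiden cluster led by Fabp4, Plvap, Cdh5 and Emcn had 20 case Nrg1 UMIs (27.5 CPM). Pi16-high fibroblasts had 6 against 28 (1.90 against 6.14 CPM, log2 -1.69, -3.25 to -0.39). A further 15 case UMIs lay in 9 ungated cells, where the control group had none. By Leiden cluster, 9 of these UMIs were in fibroblasts, 3 in ECs and 3 in Schwann cells.

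Egfr, a receptor of HB-EGF, amphiregulin and epiregulin, was a low transcript with most of its UMIs in fibroblasts and VSMCs. Fibroblasts had 90 UMIs in 83 control cells and 106 UMIs in 96 case cells, or 10.7 and 13.7 CPM, and VSMCs 40 and 72 UMIs, or 2.99 and 4.82 CPM. Fibroblasts exceeded VSMCs by log2 1.84 (1.28 to 2.41) in control and 1.51 (1.07 to 1.96) in case cells. ECs had 2 and 1 UMIs (4.84 and 0.998 CPM) and macrophages 0 and 2 (3.70 CPM in the case group). Schwann cells had none, which allows up to 30.6 and 26.7 CPM. By CPM control ECs and VSMCs did not differ beyond counting error (log2 0.69, -2.40 to 2.64). Nor did case VSMCs and macrophages (0.38, -1.52 to 3.45).

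At most 2 Egfr UMIs were seen in any VSMC or fibroblast, so its counts were spread over cells, unlike those of Areg. Thinned to 2000 UMIs per cell, Egfr was detected in 2.14% of 702 control and 2.54% of 1300 case fibroblasts and in 0.679% of 1031 and 0.724% of 2486 VSMCs. In case fibroblasts Egfr was lower in Pi16-high cells, at 8.89 against 17.1 CPM (log2 -0.94, -1.62 to -0.30). The control split was 9.87 against 12.7 CPM, within its interval.

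Egfr and Hbegf were found in the same cell in 36 of 39 Egfr-positive control VSMCs and 64 of 70 in the case group. In fibroblasts this was 48 of 83 and 43 of 96. Hbegf was detected in 1138 of all 1472 control and 2351 of all 2576 case VSMCs, and Egfr-positive fibroblasts were deeper than the rest, at a median of 15917 against 10291 control UMIs. In case fibroblasts the medians were 6186 and 5195 UMIs, and Hbegf lay in 43 of 96 Egfr-positive and 635 of 1269 other cells. In control fibroblasts it lay in 48 of 83 and 370 of 684. The part of depth and of Hbegf's own frequency in these shares was not tested, and no more was read from them.

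Erbb2 was captured 54 times in the control and 45 times in the case group. It stood at 1.95 and 1.27 CPM in VSMCs and at 2.02 and 1.43 CPM in fibroblasts, which did not differ beyond their interval in either library. ECs held 3 UMIs in each library and Schwann cells 3 and 2 (30.6 and 17.8 CPM). Macrophages had none, which allows up to 10.0 and 5.56 CPM. Only 2 control and 1 case VSMC held both Egfr and Erbb2 UMIs, too few at this depth to say how often they occur together.

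Erbb3, a neuregulin receptor, was highest in Schwann cells, with 8 UMIs in 6 of 22 control cells and 14 UMIs in 10 of 39 case cells (81.7 and 125 CPM). Macrophages followed with 2 and 8 UMIs (6.67 and 14.8 CPM), the latter in 7 of 95 cells. Schwann cells exceeded macrophages by log2 3.61 (1.29 to 6.89) in control and 3.07 (1.72 to 4.53) in case cells. VSMCs held 2 UMIs in each library, fibroblasts 2 and 5, and ECs none. Schwann cells thus carried transcripts of both Erbb2 and Erbb3, and 1 case cell held both.

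Levels were then compared between the groups within each class. A gene was compared within a class when it averaged at least 10 CPM and had at least 20 UMIs over both libraries, and was counted as past the threshold at 1.5-fold in either direction. The median log2 change of all genes compared was -0.13 in VSMCs, -0.09 in fibroblasts, -0.12 in ECs, 0.02 in macrophages and 0.01 in Schwann cells, and changes should be read against it.

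In VSMCs only Hbegf passed the filter, and 0 of 1 members was past 1.5-fold, where 20.3% of 6588 genes were. In fibroblasts Hbegf, Areg and Egfr passed and 0 of 3 was past it, against 19.7% of 6217 genes. In ECs 1 of 2 was past it (Nrg1), against 48.4% of 5934 genes. In macrophages 2 of 3 were (Areg, Ereg), against 36.8% of 4075 genes, and in Schwann cells 2 of 3 (Hbegf, Erbb3), against 51.6% of 1576 genes.

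**Figure D4:**
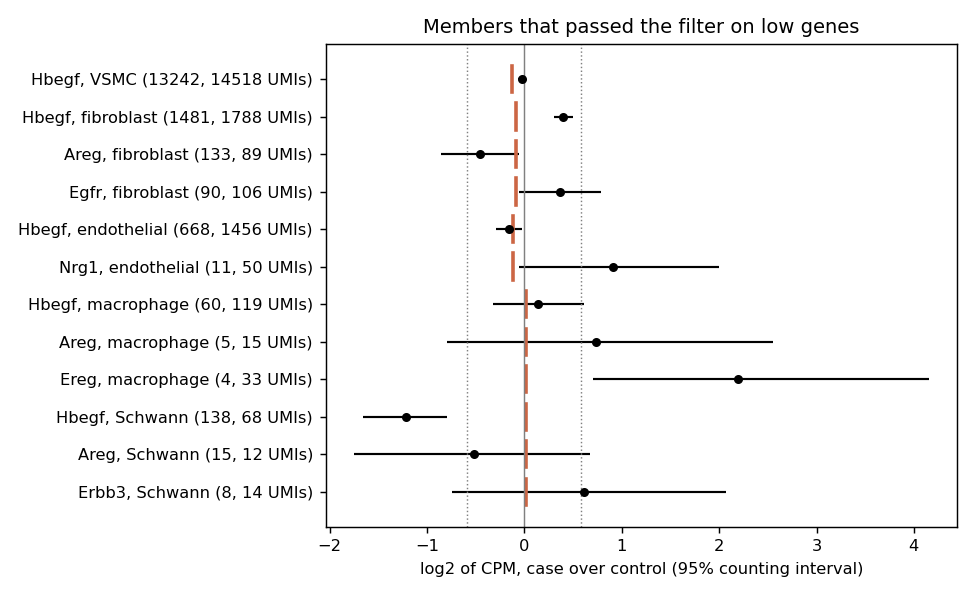
log2 of CPM in the case over the control library (x axis) for each member and class that passed the filter on low genes, with exact 95% counting intervals; orange ticks mark the median of all genes of the class and dotted lines 1.5-fold. Hbegf lay near 0 in VSMCs and ECs, where it turned from -0.03 to 0.10 and from -0.16 to 0.09 under TMM scaling, and at -1.22 in Schwann cells.

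Hbegf in VSMCs was 991 CPM in the control and 972 CPM in the case group, which is -0.03 (-0.06 to 0.01) on the log2 scale. The class held different cells in the 2 groups. Of the 3 largest Leiden clusters of VSMCs, 1 held 836 control and 91 case cells, another 119 and 1276 and the last 54 and 1221. These include ungated cells and cells gated to 2 classes. Hbegf in them was at 987 and 951, 1212 and 1144, and 767 and 826 CPM. Among clusters given no class name but scoring highest for VSMC markers, 1 with 317 control and 202 case cells had 1445 and 1030 CPM. Another with 316 and 11 cells had 485 and 633 CPM. The change of the class lay 0.10 above the median of all genes, and it became 0.10 under TMM scaling (trimmed mean of M-values, which assumes that most genes do not change). In fibroblasts it was higher in the case group by 0.40 (0.30 to 0.50), above 87.9% of the genes compared. In ECs it differed by -0.16 (-0.29 to -0.02), near the median of all genes there (-0.12), and became 0.09 under TMM scaling. Among Leiden clusters of ECs, 1 with 54 control and 161 case cells had Hbegf at 1552 and 1617 CPM. Another with 10 and 157 cells had 1915 and 1079 CPM. In macrophages the change of Hbegf was 0.14 (-0.32 to 0.61).

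In Schwann cells Hbegf was lower in the case group, with 138 UMIs in 22 control and 68 UMIs in 39 case cells (log2 -1.22, -1.66 to -0.79). A single control cell held 34 of its UMIs. Thinned to 1000 UMIs per cell, Hbegf was detected in 47.6% (25.7 to 70.2) of 21 control and 39.5% (24.0 to 56.6) of 38 case Schwann cells, intervals that overlap. With classes taken from Leiden clusters the change was -0.27. The Schwann cluster there held 27 control and 80 case cells. Of the latter 35, with 186 of its 290 case Hbegf UMIs, were ungated or gated to 2 classes. The markers of other cells also differed between the groups here: 4 perineurial markers summed to 572 CPM in control and 320 CPM in case Schwann cells, and fibroblast markers held 0.242% and 0.501% of their UMIs. Their part in the Hbegf value was not tested.

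Listed stress and immediate-early genes, summed, were lower in the case group in Schwann cells, macrophages and ECs. The log2 change of Hbegf was -1.22 in Schwann cells, 0.14 in macrophages and -0.16 in ECs, where it turned to 0.093 under TMM scaling. Of 19 listed stress and immediate-early genes (Fos, Jun, Hspa1b and others), 15 of 17 that passed the filter were past 1.5-fold lower in case Schwann cells, and their summed level was 25376 CPM in control and 9044 CPM in case cells. In ECs 7 of 17 were lower (38884 against 25542 CPM) and in macrophages 11 of 17 (9869 against 6383 CPM). In VSMCs 2 of 18 were lower, Jund (log2 -0.76) and Klf6 (-0.73), with sums of 21340 and 20462 CPM. In fibroblasts 1 of 17 was, Junb (-0.84), with sums of 27595 and 28487 CPM. None of the list was past 1.5-fold higher in any class. Of all genes compared, 367 of 1576 were past 1.5-fold lower in Schwann cells, 1676 of 5934 in ECs and 665 of 4075 in macrophages. In VSMCs 980 of 6588 were, and in fibroblasts 840 of 6217. No undigested sample was measured, so induction of these genes by tissue digestion was not tested. The part of dissociation in the Hbegf differences was not tested either.

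**Figure D5:**
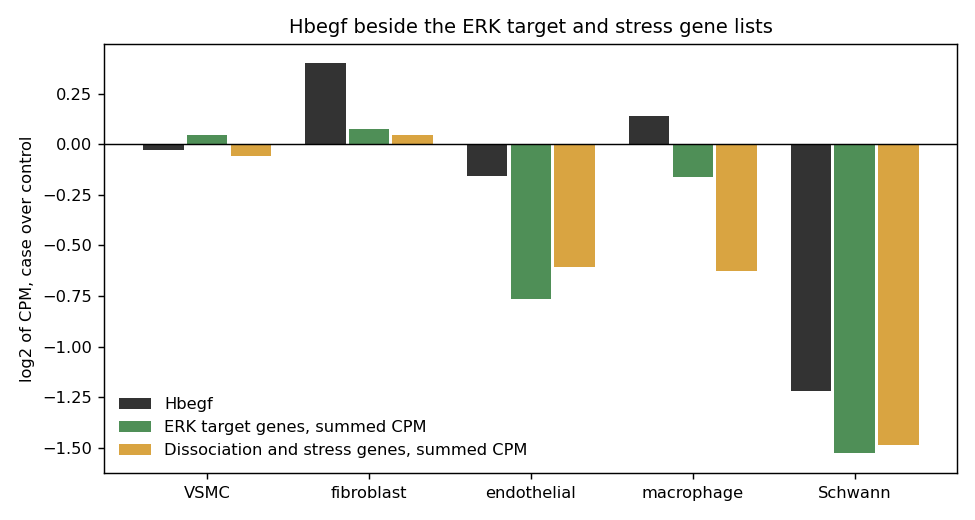
log2 of CPM in the case over the control library (y axis) for Hbegf, for the summed ERK target genes and for the summed stress genes in each class; no error is drawn, and the lists share Fos, Egr1 and Ier2. In Schwann cells all 3 were lower (-1.22, -1.53 and -1.49), while in VSMCs all 3 lay within 0.1 of 0.

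Areg in fibroblasts was lower in the case group by 0.45 on the log2 scale (0.05 to 0.86), a count that rested on 45 and 40 cells. Thinned to 2000 UMIs per cell the difference was -1.16. In Schwann cells its change was -0.52 (-1.75 to 0.67) and in macrophages 0.74 (-0.80 to 2.55). Ereg in macrophages was 4.58-fold higher in the case group (1.63 to 17.8), but in cells the comparison was 1 of 36 with 6 of 95, or 2.78% (0.0703 to 14.5) with 6.32% (2.35 to 13.2), and those intervals overlap. Thinned to 2000 UMIs per cell the log2 change of Ereg was 0.51 against 2.19 without thinning.

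Nrg1 was higher in the case group in both of its classes. In ECs the log2 change was 0.91 (-0.06 to 2.00), an interval that holds 0. In fibroblasts, where Nrg1 lay below the filter, it was 2.41 (1.21 to 3.83), or 5.31-fold (2.32 to 14.2). Case cells were shallower, yet the share of fibroblasts with a Nrg1 UMI was 0.913% (0.368 to 1.87) in control and 1.90% (1.25 to 2.78) in case cells. Thinned to 2000 UMIs it was 1 of 702 against 12 of 1300 cells. The groups were split differently over the 2 largest Leiden clusters of fibroblasts, and Nrg1 was higher in the case group in 1 of them. The cluster with 199 control and 862 case cells, led by Cilp and Has2, had 1 and 40 Nrg1 UMIs (0.466 and 8.29 CPM), while that with 526 and 652 cells, led by Alpl, had 6 and 2 (0.923 and 0.497 CPM).

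Egfr in fibroblasts changed by 0.36 (-0.06 to 0.78). In VSMCs, below the filter, it changed by 0.69 (0.11 to 1.28), or 1.61-fold, on 40 and 72 UMIs. Thinned to 2000 UMIs per cell, the share of VSMCs with Egfr was 0.679% in control and 0.724% in case cells. Thinned to 1000 UMIs it was 0.624% and 0.429%. At both depths the intervals overlap. Erbb2 changed by -0.61 (-1.55 to 0.30) in VSMCs and -0.50 (-1.74 to 0.68) in fibroblasts. Erbb3 in Schwann cells changed by 0.61 (-0.74 to 2.07), and with classes from Leiden clusters by -0.04. None of these receptor values but that of Egfr in VSMCs had an interval clear of 0.

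The rest of the family was mostly near the detection limit, with 2 exceptions. Btc (betacellulin, a ligand of EGFR and ErbB4) was highest by CPM in Schwann cells. These held 49 UMIs in 12 of 22 control and 79 UMIs in 20 of 39 case cells (501 and 703 CPM). VSMCs held 61 and 33 Btc UMIs, or 4.57 and 2.21 CPM, lower in the case group by 1.05 (0.41 to 1.70) on the log2 scale. Over all kept cells Btc had 130 and 210 UMIs, of which ungated cells held 3 and 69. The Schwann Leiden cluster held 59 and 169, with 77 of the latter in cells that were ungated or gated to 2 classes. Erbb4, a receptor of ligands that include neuregulins and betacellulin, had 52 and 66 UMIs in VSMCs (3.89 and 4.42 CPM). Fibroblasts had 2 and 0, and ECs and Schwann cells none. The 0 allows up to 7.26 and 2.99 CPM in ECs and 30.6 and 26.7 CPM in Schwann cells.

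Nrg2 had 14 and 25 UMIs in fibroblasts and 7 and 10 in VSMCs. Tgfa, which encodes another EGFR ligand, had 10 and 9 UMIs in fibroblasts. Over all kept cells Epgn had 5 and 6 UMIs, Nrg4 had 1 in each library, and Egf had 0 and 1. Of the 8 other family genes, 7 were listed in the files, and only Btc in Schwann cells passed the filter.

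Btc, Areg, Ereg and Epgn stand next to each other on rat chromosome 14 in the RefSeq annotation of GRCr8, with no other protein-coding gene between them. By CPM, Btc and Areg were highest in Schwann cells and Ereg in macrophages, in both libraries. For Ereg the lead of macrophages over Schwann cells lay within counting error in both. Of the Areg UMIs of Schwann cells, 14 of the 15 control and 10 of the 12 case UMIs lay in 1 cell each. By UMIs, fibroblasts held more Areg than any other class in both libraries (133 and 89 UMIs). Ereg had 7 UMIs in fibroblasts and 4 in macrophages of the control and 4 and 33 of the case group. Btc had 61 UMIs in VSMCs and 49 in Schwann cells of the control and 33 and 79 of the case group.

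Genes that act with the ligands and receptors were counted from lists. Each count below should be read beside the share of all genes past 1.5-fold in either direction. That share was 20.3% in VSMCs, 19.7% in fibroblasts, 48.4% in ECs, 36.8% in macrophages and 51.6% in Schwann cells. The list of 8 sheddases and partners includes Timp3, a sheddase inhibitor gene. Of these 8 genes, 5 passed the filter in VSMCs and 5 in fibroblasts, and none was past 1.5-fold there. Adam17 itself was 51.2 and 49.1 CPM in VSMCs and 25.4 and 33.7 CPM in fibroblasts. In ECs 1 was higher and 4 lower of 6, in macrophages 2 and 2 of 4, and in Schwann cells 0 of 1. Timp3 was among the lower genes in ECs and macrophages, and was the 1 gene compared in Schwann cells.

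Larger differences were seen among partners of HB-EGF at the membrane. Cd44, a receptor for hyaluronan that also holds HB-EGF at the surface, was 59.0 CPM in control and 133 CPM in case VSMCs (log2 1.17, 1.05 to 1.29) and 279 and 635 CPM in fibroblasts (1.19, 1.11 to 1.26). Cd9, a tetraspanin that binds membrane HB-EGF, was lower in case VSMCs, at 957 against 1771 CPM (-0.89, -0.92 to -0.86). Cd81, another tetraspanin, was lower in case fibroblasts, at 346 against 538 CPM (-0.64, -0.71 to -0.57). Over the 4 genes 1 was higher and 1 lower of 3 in each of these classes, 1 higher and 3 lower of 4 in ECs, 0 of 4 past the threshold in macrophages, and 1 lower of 3 in Schwann cells. The median change was -0.45 in VSMCs and -0.23 in fibroblasts.

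Few signal adaptors differed. In fibroblasts 1 of 11 was past 1.5-fold, the MAP kinase kinase gene Map2k2 (log2 -0.81), and the median of the list was -0.14. In VSMCs Hras, a GTPase gene, was lower in the case group (log2 -0.63). In ECs 1 was higher and 1 lower of 11, in macrophages 1 and 1 of 10, and in Schwann cells 1 higher of 4.

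Of the feedback inhibitors of ErbB and ERK signalling, 0 of 10 in VSMCs and 1 of 8 in fibroblasts were past 1.5-fold. The latter was Dusp5, an ERK phosphatase gene, at 33.6 CPM in control and 72.4 CPM in case fibroblasts (log2 1.11, 0.90 to 1.32). The list's median was -0.19 in VSMCs and 0.35 in fibroblasts, against -0.13 and -0.09 for all genes. In ECs 5 were higher and 1 lower of 10, where 48.4% of all genes were past 1.5-fold. Their median change there was 0.74, but their summed level differed by -0.60, with Dusp1 the most captured (3196 and 1712 CPM). The counts were 1 lower of 6 in macrophages and 1 lower of 3 in Schwann cells.

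Among ERK target genes 2 of 11 were higher in case VSMCs, the transcription factor genes Fosl1 (log2 0.97, 0.77 to 1.17) and Egr3 (0.67, 0.42 to 0.93), and Ier3, an immediate-early gene, was lower (-0.65, -0.70 to -0.61). In fibroblasts 0 of 11 were past the threshold. In ECs 1 was higher and 4 lower of 9, in macrophages 1 and 3 of 8, and in Schwann cells 6 lower of 8, with Fos, Egr1 and Ier2 on the stress list as well.

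The genes whose levels followed a member most closely over the 9 class and library profiles of at least 30 cells were found among 10325 genes, with Pearson's r of log2(CPM + 1). For Hbegf they were Numa1 (r = 0.982), Dhx40 (0.959) and Golgb1 (0.959), for Areg Etv1 (0.982), Rap2a (0.976) and Clcf1 (0.961), for Nrg1 Tnfsf10 (0.955), Ptprb (0.945) and Rps6ka3 (0.942), and for Egfr Adgrg2 (0.969), Tubb3 (0.966) and LOC100364435 (0.961). Profiles of a library share its depth and its free RNA, and only 5 classes stand behind them. These values therefore describe likeness in this data set. Low counts set part of them: Areg had 12 UMIs in case Schwann cells, 10 of them in 1 cell, and 5 in 1 control macrophage. Nrg1 had at most 1 UMI in each profile of VSMCs, macrophages and Schwann cells. Ptprb, an endothelial phosphatase gene, was at 523 and 414 CPM in ECs and at most 3.34 CPM in the other profiles. Etv1, a transcription factor gene, was at 151 CPM in case Schwann cells, 30.0 and 37.0 CPM in macrophages and 11.4 and 22.7 CPM in fibroblasts, the same classes as Areg.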

How the data were processed

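The authors deposited raw UMI counts per gene and barcode from Cell Ranger 3.1.0 (per the file headers); Rnor_6.0 and Seurat are named in the submitters' processing notes. Whether libraries were down-sampled when merged is not stated. Barcode suffixes were assigned to groups by the barcode numbers the study states. Barcodes with at most 20% mitochondrial UMIs, log10 UMIs and genes within 2 SD of the library mean and genes within 3 robust SD of a linear fit were kept. A cell was gated to a class when its markers held at least 0.7% (VSMC, 6 markers), 1.5% (fibroblast, 8), 0.1% (endothelial, 8), 0.2% (macrophage, 8) or 0.2% (Schwann, 7) of its UMIs, with 3 markers present and 2 times the relative score of the next class. Gate thresholds were chosen with the data in view, and class markers are no finding. Scrublet called 6 of 7672 cells, which is too few to have worked, and doublets were left in.

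UMIs were summed per class and library. CPM carries an exact Poisson interval, shares of cells a Clopper-Pearson interval, and ratios an exact conditional binomial interval, and a count of 0 allows up to 3. All cover counting error only, and those of CPM and ratios treat UMIs of 1 cell as independent. The median cell of a gated class had between 2935 and 10873 UMIs, cells of 2 classes and ungated cells left aside. No test across conditions was possible. The count intervals, the ratio and the fold threshold were tried on simulated Poisson counts, which were not clumped within cells. The cell filter, gate, thinning and clustering were not tested in this way. Leiden clusters (scanpy 1.11.5, leidenalg 0.10.2, 2000 variable genes, 30 components, 20 neighbours, resolution 0.8, seed 1) served alternatives and the values given by cluster. TMM factors (edgeR 4.0.16, R 4.3.3) served alternatives only. Other software was Python 3.11.15, numpy 2.4.6, scipy 1.17.1, pandas 2.3.3 and matplotlib 3.10.9.

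Named were every member in every class, list genes past 1.5-fold with at least 50 UMIs in VSMCs or fibroblasts (up to 5 a list), the rest of the family, and 3 like genes for each member of at least 100 UMIs. Adam17, Dusp1, Ptprb and Etv1 levels, Timp3 by name, leading genes of clusters and the subset splits were picked after values were seen. Members, lists and classes were chosen with earlier results of these data known. Nrg3, Hspa1a, Trac, Cd79a and Hba-a1 were not matched by symbol and were not used here. The count of signal adaptors in VSMCs is not reported here.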

Additional observations from a re-analysis of the deposited data

Results flagged for a closer look

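The log2 change of Hbegf, case over control library, differed in sign between classes, at 0.40 in fibroblasts, -0.16 in ECs and -1.22 in Schwann cells. The difference between classes was not tested, since each class has 1 library per group. In ECs the value lay near the median of all genes (-0.12) and changed sign under TMM scaling. In Schwann cells it was -0.27 with classes taken from Leiden clusters.

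Cells outside the 5 gated classes also carried members. Those gated to 2 classes had Hbegf at 686 CPM in the case group against 578 CPM in the control group, and ungated cells had Nrg1 at 7.06 CPM in the case group (15 UMIs) against 0 UMIs in the control group. These cells differed in depth between the groups. The median was 8517 case and 1433 control UMIs in cells gated to 2 classes, and 3276 and 1444 in ungated cells.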

How the results depend on the processing

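With 1 library per group no replicate could be left out, and precision is limited by UMIs: outside Hbegf no member exceeded 133 UMIs in any class and library. No paired analysis was possible because each group has 1 library, although both pool the same rats. All values below are log2 of case over control unless called counts of members past 1.5-fold. Under 10 listed alternatives and 1 added after the data were seen (cells with the highest 5% of Scrublet scores left out), 98 of 107 such log2 values stayed close to the reported ones.

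TMM scaling gave Hbegf 0.10 in VSMCs and 0.093 in ECs. Thinning to 2000 UMIs per cell gave Hbegf 0.026 in VSMCs, Areg -1.16 in fibroblasts, Ereg 0.51 in macrophages and Erbb3 -1.13 in Schwann cells, which reversed. Classes from Leiden clusters gave Hbegf 0.62 in macrophages and -0.27 in Schwann cells and Erbb3 -0.041 in Schwann cells, which reversed. They also put Hbegf in case Schwann cells 0.0066 above VSMCs (log2), a reversed order.

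Without the filter on low genes the counts became 4 of 7 in VSMCs, 3 of 7 in fibroblasts, 4 of 5 in ECs, 5 of 6 in macrophages and 4 of 5 in Schwann cells, where 41.7%, 43.6%, 65.1%, 63.9% and 71.8% of all genes were past 1.5-fold. At a mean of 100 CPM they were 0 of 1 in ECs and macrophages (42.6% and 28.8% of all genes). Thinned cells gave 1 of 3 in fibroblasts, where 1689 of 6259 genes were past 1.5-fold. They gave 0 of 1 in ECs and macrophages and 1 of 1 in Schwann cells, where fewer members passed the filter. Of all genes, 52.9% in ECs, 41.4% in macrophages and 61.6% in Schwann cells were past 1.5-fold in thinned cells. The Schwann count was 1 of 3 with all deposited barcodes (51.9% of all genes) and 1 of 2 without barcodes under 2000 UMIs (53.5%). It was 1 of 2 with the stricter gate (50.3%), 1 of 3 under TMM scaling (51.3%) and 0 of 3 with Leiden clusters (48.2%). The cause was not tested.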
